A study of Mus musculus with 48 samples.

Results

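The comparison asks whether 200 mg/kg of vancomycin changed gene expression in the kidney differently when it was given into a vein (intravenous, iv) and into the abdominal cavity (intraperitoneal, ip). It uses 24 of the 48 arrays of the study, chosen by the route and dose in their titles: 6 iv saline, 6 iv 200 mg/kg, 6 ip saline and 6 ip 200 mg/kg mice. All were female BALB/c mice dosed once a day for 7 days and killed on day 8, and the controls received saline by the route they are compared with. The other 24 mice received 50 or 400 mg/kg by the same routes. They are used here to place the 200 mg/kg values and in a fit of all 8 groups, which also serves as an alternative to the main fit. Total RNA of a piece of kidney from each mouse was measured on an Affymetrix array of its own. The mice lived under a regular light and dark cycle, and the hour of killing is not given in the sources used here.

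Vancomycin is a glycopeptide antibiotic that is cleared by the kidney and can injure the proximal tubule, the segment that reabsorbs most of the filtrate and secretes organic anions. Injured tubule cells make proteins such as clusterin and kidney injury molecule 1 and lose transporters, and leukocytes gather in the tissue. Immediate early genes are transcribed within minutes of a stimulus and fall back soon after. The circadian clock is a feedback loop of transcription factors whose output genes rise and fall over the day in kidney as in other tissues.

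For each gene the effect of the drug is the mean log2 intensity at 200 mg/kg minus that in saline of the same route. The route difference is the ip effect minus the iv effect, so a positive value means that the gene was relatively higher after ip dosing. Values passed where the limma test gave a Benjamini-Hochberg adjusted p under 0.05 over all tested genes. Values around the table's median, 3.47, lie near background, so the size of a change to or from them is approximate. Gene names rest on a reconstruction: in the deposited table values and identifiers are out of step, and names were given to 3 stretches of the table that hold 24.4% of the 45101 probe sets. Under that order the probe sets named as ribosomal proteins had a median level of 12.92, against 4.49 under the order as listed. In all, 7859 genes were named and 5484 of them were tested. A gene outside the stretches was not analysed here by name.

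The arrays of the routes differed as a whole. The 90th percentile of log2 intensity was 8.29 to 8.75 on the 12 iv arrays and 9.07 to 9.20 on the 12 ip arrays, and the median gene was 0.43 log2 units higher in ip saline than in iv saline. Route and whatever else differed between these sets of arrays cannot be told apart in a direct comparison of the routes. The route difference of the effect sets each dose group against its own saline, and over all tested genes its median was -0.05. The array of iv saline mouse 1 (residuals of 1.86 times the genes' usual spread) and that of iv 200 mg/kg mouse 27 (1.37 times) stood apart from the rest. The other 22 arrays had residuals of 0.63 to 1.13 times that spread. Tubule markers were bright: the mean of Umod, which the thick ascending limb makes, was 13.27 to 14.20 in the 4 groups, and that of Slc34a1, a phosphate transporter of the proximal tubule, 12.73 to 13.45. The labels name no batch, and p-values measure the spread between these mice.

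Given iv, 200 mg/kg changed 585 of the 5484 genes (10.7%), of which 411 rose (7.49%) and 174 fell (3.17%). Given ip, the same dose changed 6 genes (0.109%), with 4 higher (0.0729%) and 2 lower (0.0365%), and 174 had an unadjusted p under 0.05. The share of iv changes that were rises was 70.3% here, 52.6% after quantile normalization and 32.9% after the arrays were scaled to a common spread. That last scaling moved the median iv effect of all genes from 0.06 to -0.08. The routes also differed in spread: the median SD of a gene was 0.28 and 0.26 in the iv groups and 0.17 and 0.18 in the ip groups, and the fit uses 1 pooled spread for both. For the median gene this sets ip effects against a wider spread than the ip mice had, and iv effects against a narrower one. When each route was fitted on its own 12 arrays, 84 of the 585 genes passed by iv, and no others. By ip 6 genes passed, and Dbp, Per3 and Arntl were in both sets of 6. An unadjusted p under 0.05 was found for 376 genes by ip in that fit, against 174 in the pooled fit. By iv these counts were 977 and 1407. The number of genes called by each route therefore depends on the pooling. The verbs rose and fell below refer to the pooled fit. The difference between the routes itself passed for 43 genes (0.784%), of which 30 (0.547%) were relatively higher and 13 (0.237%) relatively lower after ip dosing. Its unadjusted p was under 0.05 for 821 of the 5484 genes. All 43 kept their sign under each of the 35 alternative settings in which they were tested, and 14 passed under every setting in which they were tested.

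Of the 30 relatively higher genes 26 fell by iv, 4 rose by ip and the remaining 26 did not pass by ip. Of the 13 relatively lower genes 12 rose by iv and 1 fell by ip. Because the genes were selected on the ip effect minus the iv effect, these directions follow in part from the selection. With the median over all genes taken off, the gap between the routes was larger in saline than at 200 mg/kg for 16 of the 30. The same held for 2 of the 13. Among all 585 iv changes 38 also passed the test of the route difference, so for most of them the data do not show that the routes differed. The count of 43 depended on single mice and rose most without mice 28 and 26 of the iv 200 mg/kg group. It was 291 without mouse 28 and 252 without mouse 26, of which 189 and 143 were relatively lower after ip dosing. It was 84 without iv saline mouse 1, and 22 to 28 without each of 9 other mice: iv saline 3 and 4, iv 200 mg/kg 25, 27, 29 and 30, ip saline 61, and ip 200 mg/kg 86 and 89. Without each of the remaining mice it was 29 to 41. Without iv saline mouse 1 and iv 200 mg/kg mouse 27 together it was 44, of which 30 were among the 43.

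**Figure D1:**
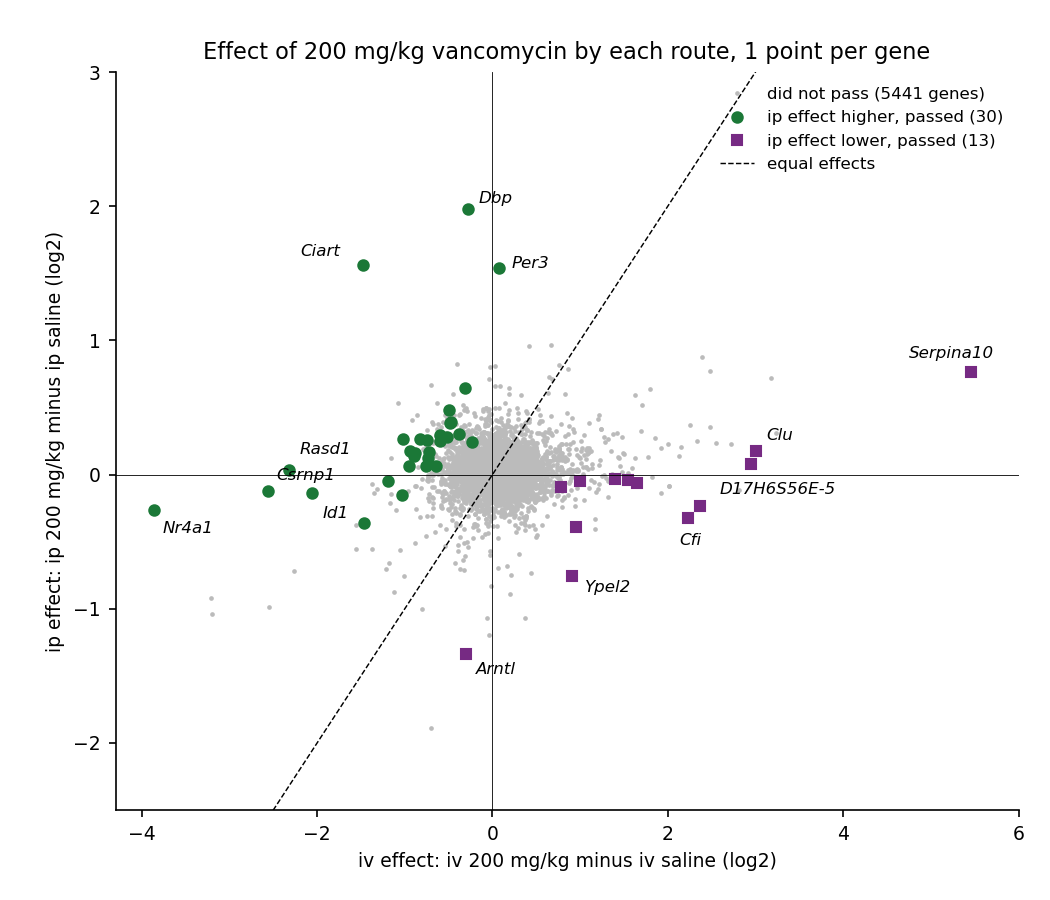
Each point is 1 of 5484 tested genes, with the effect of 200 mg/kg given iv on the x axis and given ip on the y axis, both as log2 differences from the saline group of the same route (n = 6 mice per group). The 43 coloured genes passed the test of the route difference. Purple squares lie to the right of 0 apart from Arntl, while Dbp, Per3 and Ciart stand high on the y axis.

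Genes of tubular injury rose after iv dosing and none passed after ip dosing. Clu encodes clusterin, a secreted chaperone that injured tubules make. Its log2 level was 9.05 to 10.49 (median 10.19) in iv saline and 10.47 to 14.37 (median 13.76) at iv 200 mg/kg. In ip saline it was 10.14 to 10.72 (median 10.55), and at ip 200 mg/kg 10.42 to 11.12 (median 10.58). Of the iv 200 mg/kg mice 5 lay above every other mouse of the 4 groups and 1, mouse 28, lay at 10.47, among the controls. The iv effect was 3.01 (SE 0.42, adjusted p = 8.8e-05), which is 8.04-fold, and the ip effect was 0.18 (SE 0.42). The route difference was -2.83 (SE 0.59, adjusted p = 0.019), and -2.46 with an adjusted p of 0.05 without mice 1 and 27.

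Serpina10, an inhibitor of coagulation proteases that acts with protein Z, had the lowest route difference, -4.70 (SE 1.08, adjusted p = 0.037). Its level was 2.57 to 4.16 in iv saline and 3.21 to 5.27 in ip saline, near background. At iv 200 mg/kg it was 10.45, 7.46, 10.46, 3.75, 10.32 and 9.77 in mice 25 to 30. At ip 200 mg/kg it was 4.87, 3.81, 3.93, 3.96, 5.61 and 4.87 in mice 85 to 90. Again mouse 28 stayed in the range of saline and mouse 26 was intermediate, while no ip mouse reached the level of the other iv mice. Without mice 1 and 27 the adjusted p was 0.07.

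Cp encodes ceruloplasmin, the copper-carrying ferroxidase of plasma. Its iv 200 mg/kg mice lay at 8.58 to 10.75, above all iv saline mice at 7.69 to 8.55, while both ip groups lay within 7.86 to 8.70. The route difference was -1.71 (SE 0.38, adjusted p = 0.029) and lost its call without mice 1 and 27 (adjusted p = 0.059). Of the other probe sets of Cp, 2 gave differences of -1.74 and -2.20, and 1 near background gave -0.02. Havcr1, the gene of kidney injury molecule 1, had an iv effect of 2.48 (adjusted p = 0.0016) and an ip effect of 0.77 (adjusted p = 1). Its route difference, -1.71 (SE 0.67), did not pass (adjusted p = 0.20).

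Of the 19 tested genes of the tubular injury list 15 rose by iv and 0 fell. By ip 0 passed the limma test in the pooled fit, and 0 had an unadjusted p under 0.05 there. The limma fit of the ip arrays alone also passed 0 by ip, with smaller standard errors. In it Havcr1 had an ip effect of 0.77 (SE 0.30, adjusted p = 0.60) and Clu 0.18 (SE 0.12, adjusted p = 0.83). The median iv effect of the list was 1.77 and the median ip effect 0.05, against 0.06 and 0.02 over all tested genes. The route difference passed for 3 of the 19, Clu, Serpina10 and Cp, all relatively lower after ip dosing. It had an unadjusted p under 0.05 for 15 of the 19, against 821 of all 5484 tested genes. Without mice 1 and 27 it passed for 0, and the iv effect for 12. On the iv arrays alone 7 of the 19 passed by iv, Clu (adjusted p = 0.021) and Havcr1 (adjusted p = 0.039) among them. Lrg1, a secreted glycoprotein of inflamed tissue, had a route difference of -2.93 (adjusted p = 0.056), and Fga, the fibrinogen alpha chain, -2.92 (adjusted p = 0.065). Lgals3, the lectin galectin 3, had -1.45 (adjusted p = 0.055).

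Of 9 tested complement genes 4 rose by iv, Cfi, C1qa, C1qb and C1ra, and 0 passed by ip (0 at an unadjusted p under 0.05). The median iv effect was 0.47, and the route difference passed for 2, Cfi and C1qb. Cfi encodes complement factor I, the protease that inactivates C3b. It was 6.61 to 6.90 in iv saline, 7.17 to 10.53 at iv 200 mg/kg, 6.82 to 7.31 in ip saline and 6.24 to 7.25 at ip 200 mg/kg. All 6 iv 200 mg/kg mice were above all iv saline mice, and the ip groups overlapped. The iv effect was 2.23 (SE 0.35, adjusted p = 0.00039), the ip effect -0.32 (SE 0.35), and the route difference -2.55 (SE 0.50, adjusted p = 0.011). This call held under every setting, with adjusted p-values up to 0.029.

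Ptprc, the CD45 phosphatase carried by leukocytes, was 5.44 to 6.04 in iv saline and 6.01 to 8.21 at iv 200 mg/kg. It was 5.26 to 6.42 in ip saline and 5.56 to 6.30 at ip 200 mg/kg. Its route difference was -1.59 (SE 0.39, adjusted p = 0.049). For C1qb, a chain of the C1q complex that macrophages make, the difference was -1.05 (SE 0.25, adjusted p = 0.045), and a dimmer second probe set gave -1.62. For Ms4a6b, a membrane protein of leukocytes, it was -2.60 (SE 0.59, adjusted p = 0.033). Without mice 1 and 27 the adjusted p was 0.079 for Ptprc, 0.066 for Ms4a6b and 0.049 for C1qb. C1qb passed under 10 of 35 settings, with adjusted p-values up to 0.17, and not after quantile normalization or in the fit of all 8 groups. In RNA of kidney tissue, more leukocytes and more RNA per leukocyte cannot be told apart.

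Of the 18 tested myeloid markers 15 rose by iv, 0 passed by ip (0 at an unadjusted p under 0.05), and 3 had a route difference that passed. Without mice 1 and 27 the route difference passed for 1, and on the iv arrays alone the iv effect passed for 6. On the ip arrays alone the ip effect passed for 0. Their summed intensity was 1464 to 1780 in iv saline, 1649 to 6064 at iv 200 mg/kg, 2031 to 2540 in ip saline and 1975 to 2473 at ip 200 mg/kg. The iv groups overlap through the lowest iv 200 mg/kg mouse, and the ip groups cover the same range. No neutrophil marker and 1 T and NK lymphocyte marker passed the filter on low values, so those cells could not be followed.

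Related lists had many iv changes and few route differences that passed. In the extracellular matrix list 13 of 20 tested genes rose by iv, 0 passed by ip (2 at an unadjusted p under 0.05), and 1, Col8a1, passed for the route difference. The list's median effect was 0.88 by iv and 0.28 by ip, and 18 of the 20 ip effects were above 0. Col8a1, a short-chain collagen, had a difference of -1.43 (adjusted p = 0.039, 0.065 without mice 1 and 27). Col1a1, the main fibrillar collagen, had an iv effect of 3.18 (adjusted p = 0.00039), an ip effect of 0.72 (adjusted p = 1) and a route difference of -2.45 (adjusted p = 0.081). By iv 7 of 9 antigen presentation genes rose, as did 10 of 18 interferon response genes and 7 of 11 cell cycle genes (3 of 10 without mice 1 and 27). On the iv arrays alone the iv effect passed for 1, 1 and 0 genes of these lists, and for 5 matrix genes. For these 3 lists the route difference passed for 0 genes. It had an unadjusted p under 0.05 for 8, 11 and 6 genes, against 821 of all 5484 tested genes. By ip 0 genes of these lists passed, with 0 at an unadjusted p under 0.05. For the chemokine and inflammatory list 9 of 17 rose and 1 fell by iv, and 0 passed for the route difference (8 unadjusted).

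**Figure D2:**
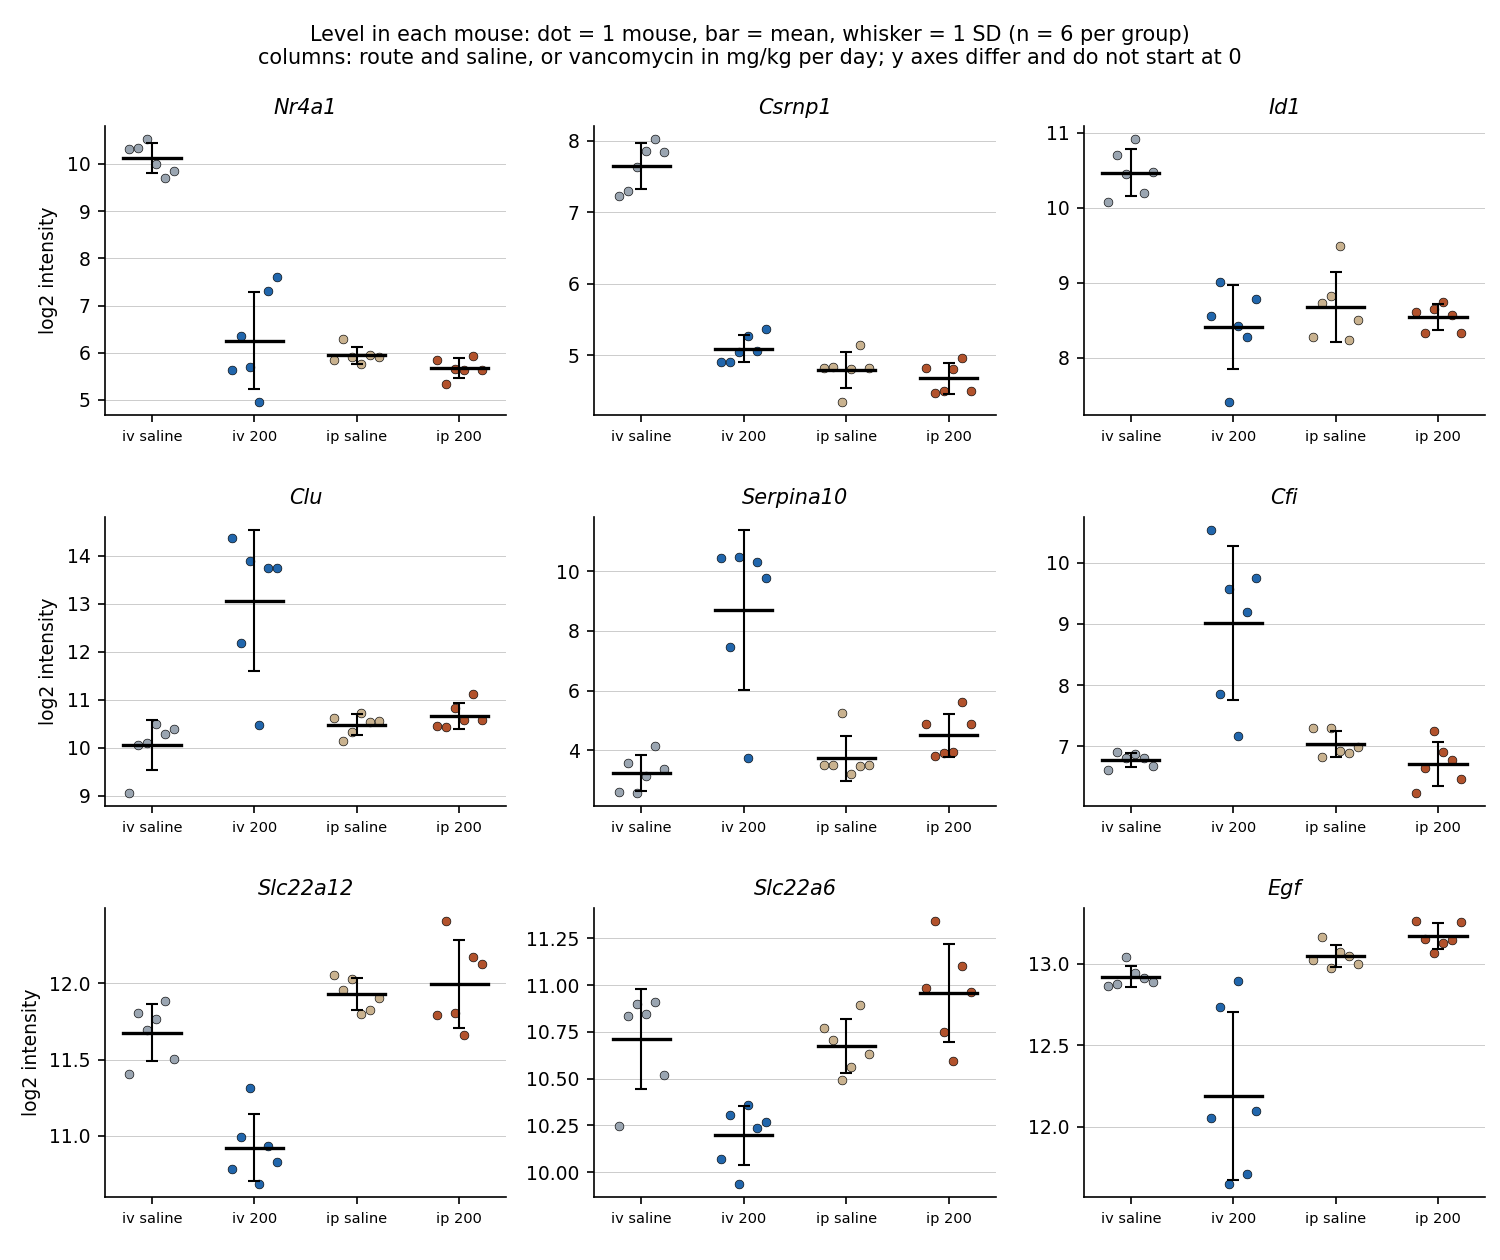
The log2 intensity of 9 genes in each of the 24 mice, with 1 dot per mouse, the group mean as a bar and 1 SD as a whisker (n = 6 per group). Nr4a1, Csrnp1 and Id1 are higher in iv saline than in the other 3 groups. Clu, Serpina10 and Cfi are high in most iv 200 mg/kg mice, and Slc22a12, Slc22a6 and Egf are lowest there.

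Other relatively lower genes lay outside these lists. Abca1, the pump that exports cholesterol to apolipoprotein A1, rose by iv by 0.96 (adjusted p = 0.0062) and had a route difference of -1.35 (SE 0.31, adjusted p = 0.034, 0.058 without mice 1 and 27). Dynll1, a light chain of dynein, rose by 0.78 and differed by -0.88 (SE 0.21, adjusted p = 0.045). D17H6S56E-5 rose by iv by 2.95 and differed by -2.87 (SE 0.56, adjusted p = 0.011). Ypel2 rose by iv by 0.91 (adjusted p = 0.016), had an ip effect of -0.75 (adjusted p = 0.64) and differed by -1.66 (SE 0.34, adjusted p = 0.017). Its level was 7.84 to 9.01 in ip saline and 7.08 to 7.69 at ip 200 mg/kg, which do not overlap. D17H6S56E-5 and Ypel2 passed under every setting.

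Some transporters of the proximal tubule fell after iv dosing. Slc22a12 encodes the urate exchanger URAT1. It was 11.40 to 11.89 (median 11.73) in iv saline and 10.68 to 11.31 (median 10.88) at iv 200 mg/kg, which do not overlap. In ip saline it was 11.80 to 12.06 (median 11.93) and at ip 200 mg/kg 11.66 to 12.41 (median 11.97), which overlap. The iv effect was -0.75 (SE 0.12, adjusted p = 0.00039), the ip effect 0.07 (SE 0.12) and the route difference 0.82 (SE 0.17, adjusted p = 0.017, 0.11 in the fit of all 8 groups).

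Slc22a6 encodes OAT1, the basolateral carrier that takes organic anions into the proximal tubule cell. It was 10.25, 10.84, 10.90, 10.84, 10.91 and 10.52 in iv saline mice 1 to 6. At iv 200 mg/kg it was 10.07, 10.30, 9.94, 10.36, 10.24 and 10.27 in mice 25 to 30. The iv groups overlap only through saline mouse 1, whose array stood apart. Mouse 28 was the highest of the iv 200 mg/kg mice and lay below saline mice 2 to 6. At ip 200 mg/kg it was 10.59 to 11.34 and in ip saline 10.50 to 10.90. The iv effect was -0.51 (SE 0.12, adjusted p = 0.0087) and the route difference 0.79 (SE 0.17, adjusted p = 0.025, 0.0057 without mice 1 and 27 and 0.47 in the fit of all 8 groups). Slc22a19, the organic anion carrier OAT5, differed by 0.87 (SE 0.21, adjusted p = 0.045). Slc22a8, the carrier OAT3, fell by iv by 0.80 and differed by 0.99 (SE 0.25), which did not pass (adjusted p = 0.055, 0.045 without mice 1 and 27).

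Of 24 tested proximal tubule transporters 9 fell and 1, Slco3a1, rose by iv. By ip 0 passed, with 5 at an unadjusted p under 0.05, and 19 of the 24 ip effects were above 0. The route difference passed for 3, all relatively higher after ip dosing, and was above 0 for 22. It passed for 6 without mice 1 and 27, and for 7 after quantile normalization. On the iv arrays alone 1 transporter passed as lower, Slc22a12 (adjusted p = 0.0094), and 1 as higher. The list's median effect was -0.49 by iv and 0.14 by ip. Among 33 tested genes of proximal tubule metabolism 13 fell and 1 rose by iv, 0 passed by ip (2 unadjusted), and 1 passed for the route difference. That gene, Aspdh, has an aspartate dehydrogenase domain. It was 8.68 to 8.92 in iv saline and 7.39 to 8.61 at iv 200 mg/kg, which do not overlap, and its route difference was 1.02 (SE 0.22, adjusted p = 0.023, 0.44 in the fit of all 8 groups). On the iv arrays alone it was the 1 metabolism gene that passed (adjusted p = 0.032). Hpd, an enzyme of tyrosine breakdown, was 10.99, 13.64, 11.75, 13.33, 11.36 and 11.59 in iv 200 mg/kg mice 25 to 30 and 12.98 to 13.59 in iv saline. Only mice 26 and 28 lay at the saline level, and its difference of 1.01 (SE 0.43) did not pass (adjusted p = 0.24).

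Egf, which the distal tubule makes and sheds into urine, was 12.86 to 13.04 in iv saline and 11.65 to 12.89 at iv 200 mg/kg. Its route difference was 0.85 (SE 0.20, adjusted p = 0.045, 0.059 without mice 1 and 27 and 0.51 in the fit of all 8 groups). It was the 1 gene of 17 tested loop and distal tubule genes to pass. Umod did not pass by either route, with effects of 0.03 and 0.08 (SE 0.07 each) and a route difference of 0.06 (SE 0.10).

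**Figure D3:**
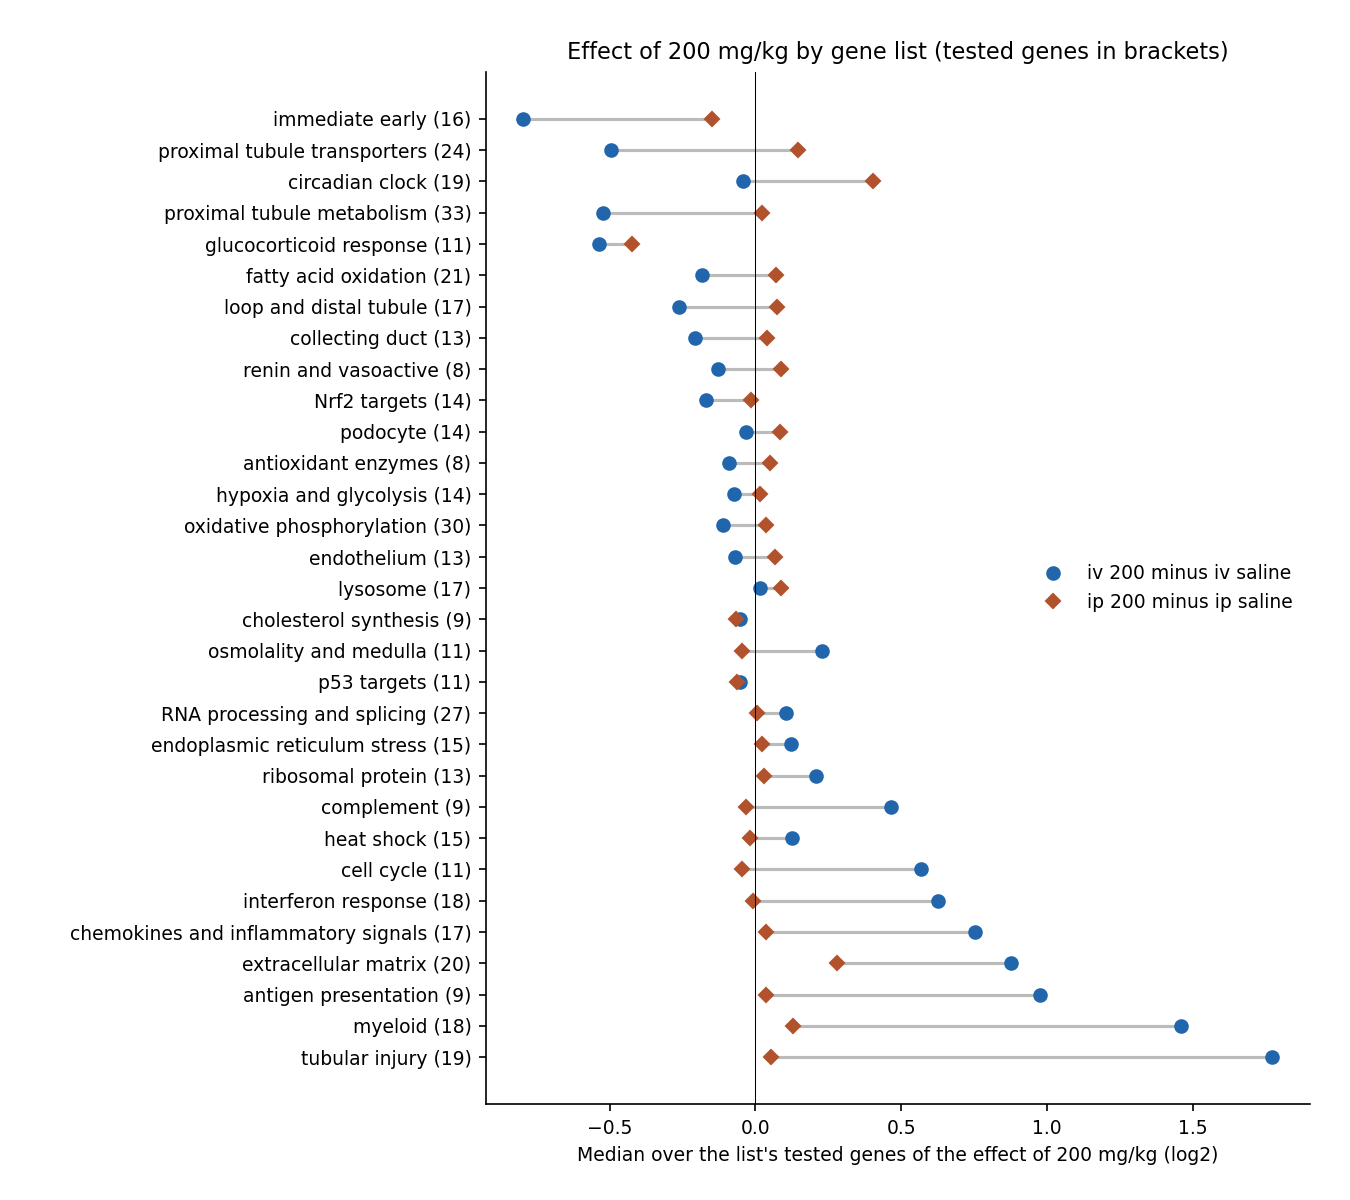
The median log2 effect of 200 mg/kg over the tested genes of each list with at least 8 tested genes, by iv (circles) and by ip (diamonds). Lists are ordered by their median route difference, and tubular injury has an iv median of 1.77 and an ip median of 0.05.

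The iv 200 mg/kg mice differed from each other in these lists. The median over the 19 tubular injury genes of a mouse's difference from its route's saline mean was 2.44, 0.65, 2.61, 0.13, 2.15 and 2.09 in mice 25 to 30. In ip 200 mg/kg mice it ran from -0.07 to 0.19, in iv saline from -0.44 to 0.24 and in ip saline from -0.18 to 0.16. So 5 of 6 iv mice lay above all other mice of the 4 groups, and mouse 28 lay within the saline range. The myeloid medians of the same iv mice were 2.49, 0.35, 1.55, 0.21, 1.62 and 1.90, with mice 26 and 28 lowest again. The proximal tubule transporter medians were -0.34, -0.05, -1.07, -0.15, -0.71 and -0.48, and mice 26 and 28 were nearest to 0.

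At 400 mg/kg the tubular injury median was 2.67 to 4.03 over the iv mice and 3.40 to 4.03 over the ip mice, so every mouse of both routes was high. At 50 mg/kg it was -0.61 to 0.00 by iv and -0.07 to 0.23 by ip. Clu had means of 14.21 and 14.04 at 400 mg/kg iv and ip, and 10.16 and 10.34 at 50 mg/kg. At 400 mg/kg its route difference was -0.58 (adjusted p = 0.54), and that of Serpina10 was 0.10 (adjusted p = 0.97).

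**Figure D4:**
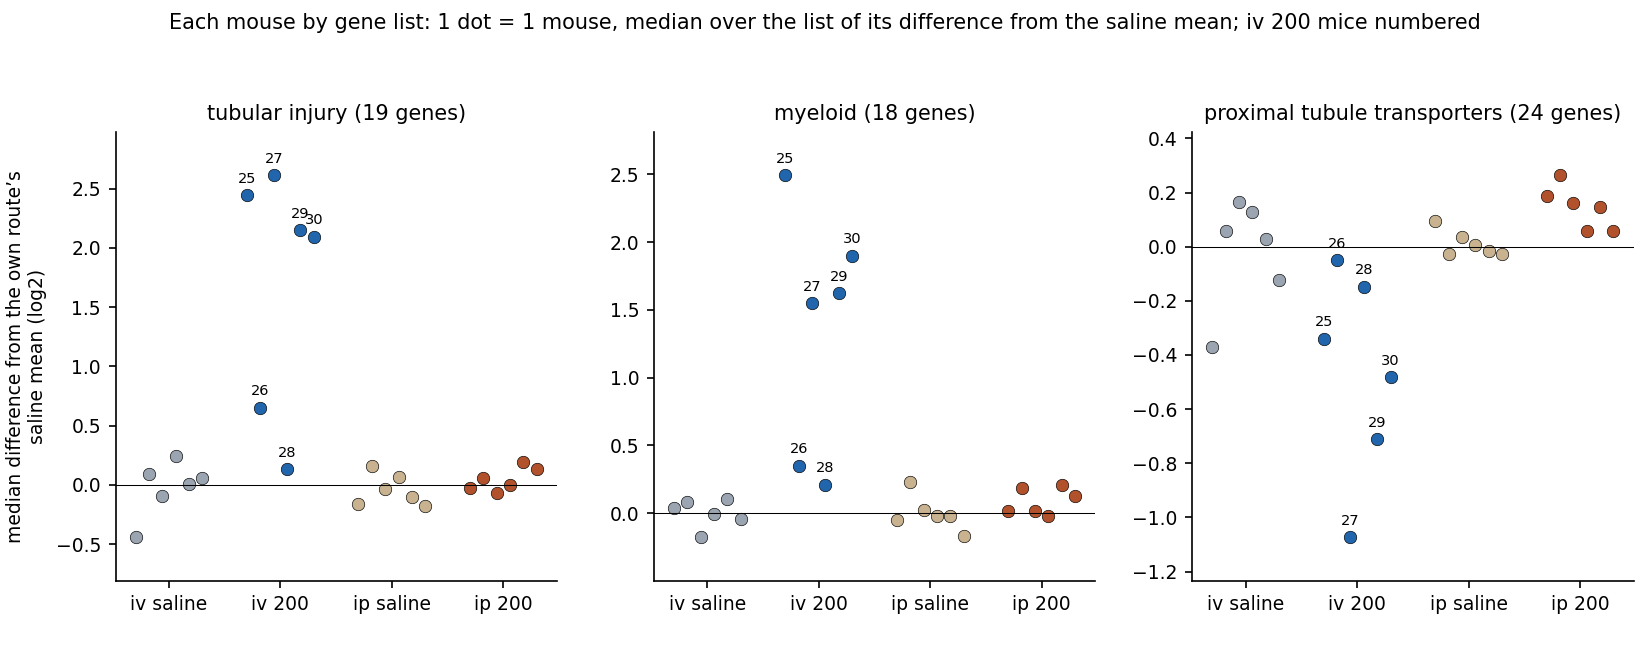
Each dot is 1 mouse, and the y axis gives the median over a list's genes of its log2 difference from the saline mean of its own route, for tubular injury (19 genes), myeloid (18) and proximal tubule transporters (24). The iv 200 mg/kg mice are numbered: mice 26 and 28 are nearest to saline in all 3 lists, and the ip 200 mg/kg mice lie close to 0.

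The route difference can come from either end of each effect, so the 200 and 50 mg/kg groups were also compared without the saline arrays, as the ip change from 50 to 200 mg/kg minus the iv change. Over all tested genes 63 passed (1.15%), 3 relatively higher and 60 relatively lower after ip dosing. Of the 13 relatively lower genes 7 passed: Serpina10, D17H6S56E-5, Clu, Cfi, Cp, Ptprc and Ms4a6b. Clu gave -2.59 (adjusted p = 0.002) and Serpina10 -5.07 (adjusted p = 0.0012). Of the 30 relatively higher genes 0 passed, with a median of 0.35, against -1.61 for the 13 relatively lower genes. Both values come from the fit of all 8 groups. In that fit some of the 30 also missed the threshold against saline, such as Egf (adjusted p = 0.51), Slc22a6 (0.47), Aspdh (0.44) and Slc22a12 (0.11). Others, such as Nr4a1 (adjusted p = 0.00028), passed there. Among the 13, C1qb (adjusted p = 0.17), Col8a1 (0.11) and Arntl (0.11) missed it. How far the count of 0 reflects that fit was not tested. The 200 mg/kg arrays are the same in both comparisons.

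Several of the highest route differences were those of immediate early genes, whose levels were higher in iv saline than in the other 3 groups of the comparison. Nr4a1 encodes the nuclear receptor NUR77. It was 9.71 to 10.53 (median 10.15) in iv saline and 4.95 to 7.61 (median 6.02) at iv 200 mg/kg. In ip saline it was 5.76 to 6.29 (median 5.92) and at ip 200 mg/kg 5.34 to 5.93 (median 5.65). All iv saline mice lay above all other 18 mice, and the ip groups overlap. The iv effect was -3.86 (SE 0.30, adjusted p = 4.2e-09), a 14.6-fold lower level, the ip effect -0.27 (SE 0.30), and the route difference 3.60 (SE 0.42, adjusted p = 2.1e-05).

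Across the other doses the Nr4a1 mean was 5.94 at iv 50, 6.91 at iv 400, 5.89 at ip 50 and 6.76 at ip 400 mg/kg. So the 7 groups other than iv saline lay between 5.68 and 6.91 and iv saline at 10.12. The route difference at 50 mg/kg was 4.13 (adjusted p = 2.7e-05), and that of 200 against 50 mg/kg, without saline, was -0.54 (adjusted p = 0.80).

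Because the Nr4a1 level turned on 1 group, the 250 bases before its RefSeq start site are shown (GRCm38.p6, chr15:101266596-101266845, plus strand). Capitals mark the CRE half-site TGACG, the core that CREB binds, or its complement CGTCA on the other strand. It is there 4 times. Of 32851 promoter windows of this length, 17.8% hold at least 1 copy on either strand. Among the 10 tested immediate early genes with such a window 6 do, and how often 4 copies occur was not counted.
Nr4a1: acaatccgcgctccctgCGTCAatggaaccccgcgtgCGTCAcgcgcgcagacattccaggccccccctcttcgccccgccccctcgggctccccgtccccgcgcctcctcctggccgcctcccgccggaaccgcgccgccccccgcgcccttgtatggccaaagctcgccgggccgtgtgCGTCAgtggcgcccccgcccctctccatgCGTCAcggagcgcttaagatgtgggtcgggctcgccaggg

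Csrnp1, a nuclear protein of the immediate early class, was 7.23 to 8.02 in iv saline and 4.90 to 5.37 at iv 200 mg/kg, against 4.34 to 5.14 and 4.46 to 4.96 in the ip groups. Its route difference was 2.44 (SE 0.21), with the lowest adjusted p of all genes, 7.5e-08. Rasd1, a small G protein that glucocorticoids induce, was 7.16 to 8.07 in iv saline, 3.86 to 5.90 at iv 200 mg/kg, 3.85 to 4.27 in ip saline and 3.91 to 4.33 at ip 200 mg/kg. Its route difference was 2.35 (SE 0.33, adjusted p = 0.00042). Id1, which blocks DNA binding by basic helix-loop-helix factors, was 10.08 to 10.91 in iv saline and 7.41 to 9.01 at iv 200 mg/kg, and 8.23 to 9.49 over the ip mice. Its route difference was 1.92 (SE 0.30, adjusted p = 0.0011). For each of these genes every iv saline mouse was above every other mouse of the 4 groups.

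Ptgs2, the inducible cyclooxygenase, was 4.23 to 5.22 in iv saline and no higher than 3.63 in the other 3 groups, and differed by 1.14 (SE 0.17, adjusted p = 0.00061, 0.24 in the fit of all 8 groups). Tob2 and Tob1, antiproliferative proteins of the BTG family, differed by 1.10 (adjusted p = 0.021) and 0.87 (adjusted p = 0.028). Tob2 was lower at 200 mg/kg by both routes, with no overlap in either, but its ip effect of -0.36 did not pass (adjusted p = 1). Fos and Egr1, which encode transcription factors of the same class, fell by iv by 3.21 and 2.55, and their route differences of 2.29 (SE 0.81, adjusted p = 0.16) and 1.56 (SE 0.71, adjusted p = 0.29) did not pass. Both remained higher at iv 200 than at ip 200 mg/kg, by 4.13 and 2.42. Slc25a25, a mitochondrial carrier of ATP-Mg and phosphate, fell by iv by 3.19 and had a difference of 2.15 (adjusted p = 0.068).

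Of 16 tested immediate early genes 9 fell and 1, Myc, rose by iv, 0 passed by ip (2 unadjusted), and 4 passed for the route difference. The 4 were Nr4a1, Csrnp1, Rasd1 and Ptgs2. Their iv effects are measured against iv saline mice in which the list's summed intensity was 5615 to 8778, against 1592 to 2348 in ip saline, 1809 to 4123 at iv 200 mg/kg and 1214 to 1444 at ip 200 mg/kg. At 50 mg/kg the sum was 868 to 2516 by iv and 1422 to 1945 by ip. At 400 mg/kg it was 3097 to 11072 by iv and 4900 to 15585 by ip, so the highest 400 mg/kg mice lay above iv saline. Rasd1 had means of 6.53 and 6.55 at iv and ip 400 mg/kg and 7.64 in iv saline, and Ptgs2 had 4.47 and 5.33 against 4.63.

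**Figure D5:**
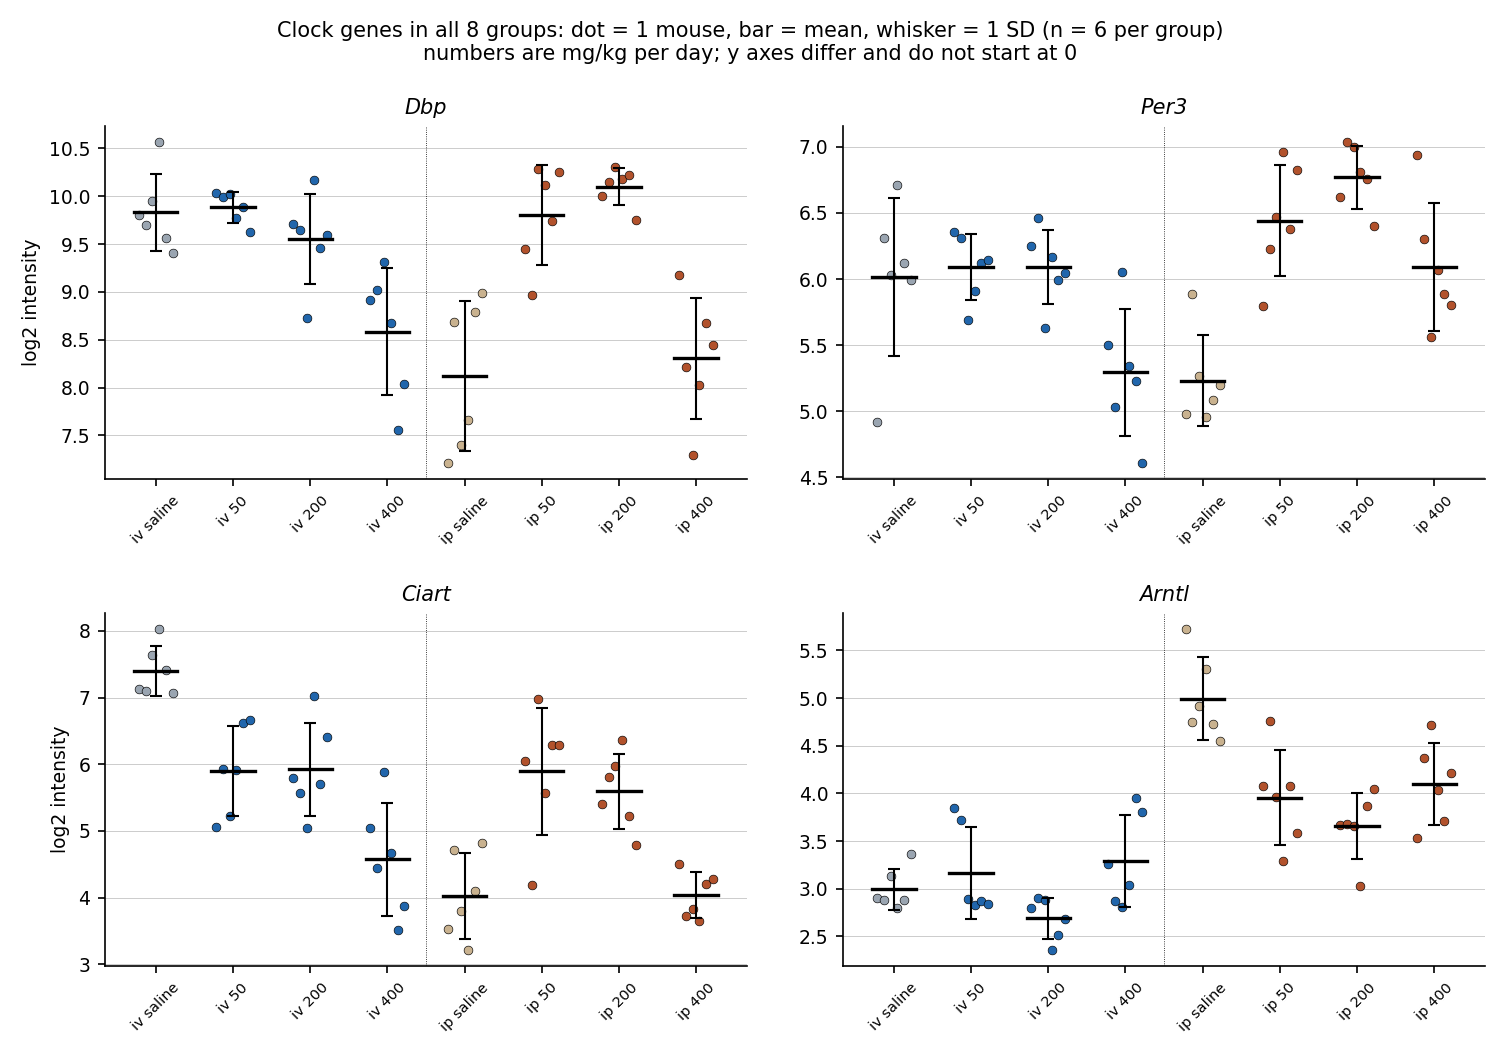
The log2 intensity of Dbp, Per3, Ciart and Arntl in all 48 mice, with 1 dot per mouse, the mean as a bar and 1 SD as a whisker (n = 6 per group). In ip saline Dbp, Per3 and Ciart are low and Arntl is high, and at ip 50 and 200 mg/kg the first 3 are higher and Arntl is lower.

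In the pooled fit clock genes were 3 of the 4 that rose and 1 of the 2 that fell by ip. They were 19 of the 5484 tested genes. The 6 genes that passed by ip were Dbp, Per3, Ciart and Phlda2, which rose, and Arntl and Ethe1, which fell. Of these Arntl is named outside the rule for naming genes, after its values were seen. Without mice 1 and 27 13 genes passed, the 6 among them, and the clock list gave 4 that rose and 2 that fell. On the ip arrays alone Ciart (adjusted p = 0.051), Ethe1 (0.05) and Phlda2 (0.088) did not pass, and Ndrg1 (adjusted p = 0.0032), Bnip3 (0.049) and Mettl7b (0.049) did. The clock list gave 2 that rose and 1 that fell on those arrays. Ndrg1 and Bnip3 are named after their values were seen. Dbp, an output transcription factor of the clock, was 7.21 to 8.99 (median 8.17) in ip saline and 9.75 to 10.31 (median 10.17) at ip 200 mg/kg, which do not overlap. In iv saline it was 9.41 to 10.57 (median 9.75) and at iv 200 mg/kg 8.73 to 10.17 (median 9.62), which overlap. The ip effect was 1.98 (SE 0.27, adjusted p = 0.00029), or 3.94-fold, the iv effect -0.28 (SE 0.27, adjusted p = 0.56), and the route difference 2.26 (SE 0.38, adjusted p = 0.0023).

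Per3, a period protein that acts in the negative limb of the loop, was 4.96 to 5.89 in ip saline and 6.40 to 7.04 at ip 200 mg/kg, against 4.92 to 6.71 and 5.63 to 6.46 in the iv groups. The ip groups do not overlap and the iv groups do. Its ip effect was 1.54 (SE 0.21, adjusted p = 0.00029) and its route difference 1.46 (SE 0.30, adjusted p = 0.019). Ciart, a repressor of the CLOCK and BMAL1 complex, was the 1 gene that passed by both routes with opposite signs, though its ip effect missed the threshold on the ip arrays alone. It was 3.22 to 4.82 in ip saline and 4.79 to 6.36 at ip 200 mg/kg, and 7.07 to 8.03 in iv saline and 5.04 to 7.02 at iv 200 mg/kg. The ip effect was 1.56 (SE 0.31, adjusted p = 0.031), the iv effect -1.48 (SE 0.31, adjusted p = 0.0036) and the route difference 3.04 (SE 0.44, adjusted p = 0.00042).

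Arntl encodes BMAL1, the activator of the loop, which peaks in antiphase to these outputs. It was 4.55 to 5.72 in ip saline and 3.03 to 4.05 at ip 200 mg/kg, and 2.80 to 3.37 and 2.36 to 2.90 in the iv groups, near background. Its ip effect was -1.33 (SE 0.18, adjusted p = 0.00029) and its route difference -1.03 (SE 0.25, adjusted p = 0.046). That difference passed under 11 of the 34 settings in which Arntl was tested, with adjusted p-values up to 0.11. Without mice 1 and 27 it was -0.97 (adjusted p = 0.076).

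Of 19 tested clock genes 3 rose and 1 fell by ip, 3 fell by iv, and the route difference passed for 3 relatively higher genes and 1 relatively lower one. At an unadjusted p under 0.05 the ip effect counted 11 genes and the route difference 13, against 174 and 821 of all 5484. Bhlhe40, another repressor of the loop, differed by 1.33 (adjusted p = 0.056), Nr1d1, which encodes REV-ERB alpha, by 1.61 (adjusted p = 0.08), and Npas2, a partner of BMAL1, by -1.15 (adjusted p = 0.13). The median difference of a mouse from its saline mean over the list was 0.28 to 0.57 at ip 200 mg/kg and -0.17 to 0.27 in ip saline. At iv 200 mg/kg it was -0.48 to 0.15.

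The clock values at 50 mg/kg were close to those at 200 mg/kg. Dbp had a mean of 8.12 in ip saline, 9.80 at ip 50, 10.10 at ip 200 and 8.31 at ip 400 mg/kg. By iv its means were 9.83 in saline, 9.89 at 50, 9.55 at 200 and 8.58 at 400 mg/kg. So ip saline and both 400 mg/kg groups were low and the other 5 groups high. Ciart was 4.03, 5.89, 5.59 and 4.03 over the same ip groups and 7.40, 5.90, 5.92 and 4.57 over the iv groups. The route difference of 200 against 50 mg/kg was 0.63 for Dbp (adjusted p = 0.61), 0.33 for Per3 (adjusted p = 0.78) and -0.32 for Ciart (adjusted p = 0.88).

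The 250 bases before the RefSeq start sites of these 3 genes are shown because clock factors act through the E-box CACGTG and the D-box TTATGTAA, which capitals mark on either strand. Of 32851 windows 6.02% hold the E-box and 0.819% the D-box. Among the 15 tested clock genes with such a window, 2 hold the E-box and 1 the D-box. Ciart (GRCm38.p6, chr3:95882229-95882478, minus strand) has 3 E-boxes, Per3 (chr4:151044666-151044915, minus strand) has 2 D-boxes, and in Dbp (chr7:45704997-45705246, plus strand) neither motif is in this window.
Ciart: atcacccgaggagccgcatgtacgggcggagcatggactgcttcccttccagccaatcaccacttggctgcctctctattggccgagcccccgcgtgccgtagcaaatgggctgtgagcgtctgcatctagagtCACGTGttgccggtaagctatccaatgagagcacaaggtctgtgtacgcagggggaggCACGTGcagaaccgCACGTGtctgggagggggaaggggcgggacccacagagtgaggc
Per3: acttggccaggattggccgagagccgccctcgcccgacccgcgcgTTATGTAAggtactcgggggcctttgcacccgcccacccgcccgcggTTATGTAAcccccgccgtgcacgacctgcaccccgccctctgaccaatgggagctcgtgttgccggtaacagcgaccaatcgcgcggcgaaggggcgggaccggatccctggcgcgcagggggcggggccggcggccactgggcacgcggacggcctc
Dbp: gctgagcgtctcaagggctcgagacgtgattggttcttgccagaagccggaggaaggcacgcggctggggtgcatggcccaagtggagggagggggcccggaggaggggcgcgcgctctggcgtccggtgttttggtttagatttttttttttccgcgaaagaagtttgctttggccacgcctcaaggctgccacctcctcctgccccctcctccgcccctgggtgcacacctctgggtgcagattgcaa

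The other genes that passed by ip in the pooled fit were Phlda2 and Ethe1. Phlda2, an imprinted gene with a pleckstrin homology domain, rose by ip by 0.64 (SE 0.12, adjusted p = 0.02), had an iv effect of -0.31 (adjusted p = 0.095), and differed by 0.96 (SE 0.17, adjusted p = 0.0039). It was 7.50 to 8.30 in ip saline and 8.20 to 8.87 at ip 200 mg/kg, and 7.43 to 7.71 and 6.99 to 7.36 in the iv groups. Ethe1, a mitochondrial sulfur dioxygenase, fell by both routes, by 0.53 by ip (adjusted p = 0.021) and by 0.39 by iv (adjusted p = 0.013). Its route difference was -0.14 (SE 0.14, adjusted p = 0.71).

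Among the remaining relatively higher genes the iv effects were negative and the ip effects above 0. Igfbp1, which binds insulin-like growth factors, was 10.98 to 11.11 in iv saline and 9.25 to 10.79 at iv 200 mg/kg, which do not overlap, and differed by 1.29 (SE 0.30, adjusted p = 0.036). Slc25a33, a mitochondrial carrier of pyrimidine nucleotides, differed by 1.11 (SE 0.24, adjusted p = 0.023), and Inpp5j, an inositol phosphatase, by 1.00 (SE 0.22, adjusted p = 0.029). Mettl7b had an iv effect of -0.47 (adjusted p = 0.0025), an ip effect of 0.39 (adjusted p = 0.14) and a difference of 0.86 (SE 0.13, adjusted p = 0.00079). Gjb2, the gap junction protein connexin 26, had -0.50 (adjusted p = 0.0064), 0.48 (adjusted p = 0.14) and 0.98 (SE 0.16, adjusted p = 0.0016). On the arrays of each route alone the iv and ip effects of Mettl7b had adjusted p-values of 0.053 and 0.049, and those of Gjb2 0.058 and 0.076. Opposite changes by the routes are therefore not shown for either gene.

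Mettl7b, Gjb2, Tob1 and the next 9 genes are outside the rule for naming genes and are given because they complete the 43. These 9 had differences of 0.47 to 1.09. Akr1d1, a steroid reductase, differed by 1.09, Bcat2, the mitochondrial branched-chain aminotransferase, by 1.05, and Rprd2 by 1.04. Fgfr3, a growth factor receptor, and Smad7, an inhibitor of TGF-beta signalling, both differed by 0.89. Cited2, a coregulator of transcription, differed by 0.85, Myl6, a myosin light chain, by 0.70, C1qtnf12 by 0.68 and Tmem150a by 0.47. Bcat2, Gjb2 and Rprd2 passed under every setting in which they were tested. Akr1d1 (adjusted p = 0.076), Cited2 (0.068), Myl6 (0.059) and Smad7 (0.052) did not pass without mice 1 and 27.

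At 50 and 400 mg/kg the same route difference, fitted over all 8 groups, passed for 11 genes (0.201%) and 151 genes (2.75%). These comparisons share the saline arrays with that at 200 mg/kg. Of the 30 relatively higher genes at 200 mg/kg 6 passed at 50 mg/kg in the same direction. At 400 mg/kg 9 passed in the same direction and 4 in the opposite one. Slc22a12 was one of the 4, with 0.82 at 200 and -1.35 at 400 mg/kg (adjusted p = 0.0012). Its means were 10.30 at iv 400 and 9.20 at ip 400 mg/kg. Of the 13 relatively lower genes 0 passed at 50 mg/kg, and at 400 mg/kg 1 passed in each direction.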

How the data were processed

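Total kidney RNA of 48 mice was measured on single-colour Affymetrix arrays, 1 per mouse. The deposited table holds linear intensity values. Per the submitters' processing notes, the authors used GCRMA. Its version is not given in the sources used here. The number of arrays limits the precision.

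Log2 was taken without an offset. Values do not follow the identifiers beside them, so names were taken from the platform annotation at a constant shift of order in 3 stretches (11000 probe sets, 10198 named). That reconstruction, the comparison and all gene lists were chosen with earlier results of these data known. A probe set was kept where it exceeded the table's median (3.47) in at least 6 of the 24 arrays, and the one with the highest mean stood for each gene. The 4 groups were fitted with limma 3.58.1 in R 4.3.3 (a linear model with moderated variances and a variance trend, 20 residual degrees of freedom, two-sided, Benjamini-Hochberg adjustment). The fit was tested on simulated data. Values at 50 and 400 mg/kg come from a fit of all 8 groups. Of the tested genes 5477 matched a RefSeq gene by Entrez identifier.

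Genes were named by rule: up to 12 with the highest and 12 with the lowest route difference among those that passed with a group mean above 6, up to 6 each way in each single-route effect, any that passed by both routes with opposite signs, up to 3 per list that passed for the route difference, and 30 fixed genes, of which Dusp1, Atf3, Krt20, Cd44 and Lcn2 were not tested. Genes said to be outside the rule, and the list examples Lgals3, Bhlhe40, Nr1d1, Npas2, Slco3a1 and Myc, were chosen after their values were seen. Alternatives were the normalization, filter, floor, array weights, variance trend, probe set choice, samples fitted and leaving out each mouse. Leaving out the 2 arrays that stand apart and fitting each route alone were added after seeing the data.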

Additional observations from a re-analysis of the deposited data

Results flagged for a closer look

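Among 172 groups of 6 mice tested with Dixon's criterion 11 held a mouse far from the others, where chance gives about 1 in 20. These were, as log2 levels, Nr4a1 at 6.29, Per3 at 5.89 and Tob2 at 5.71 in ip saline mouse 62, Serpina10 at 5.27 in ip saline mouse 63, Tob2 at 5.26 and Clu at 9.05 in iv saline mouse 1, Nphs1 at 4.73 in iv saline mouse 2 and Egr1 at 10.14 in iv saline mouse 4. In the dosed groups they were Rasd1 at 3.86 in iv 200 mg/kg mouse 28, Slc25a33 at 8.19 in ip 200 mg/kg mouse 87 and Ypel2 at 7.08 in ip 200 mg/kg mouse 88.

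For 43 genes the interaction test of the 200 mg/kg effect passed. Of these 14 passed under every setting in which they were tested, and 24 passed in the fit of all 8 groups. The ip minus iv effect in log2 units was 3.60 for Nr4a1, 3.04 for Ciart, 2.44 for Csrnp1, 2.35 for Rasd1, 2.26 for Dbp, 1.92 for Id1 and 1.46 for Per3. It was 1.29 for Igfbp1, 1.14 for Ptgs2, 1.11 for Slc25a33, 1.10 for Tob2, 1.09 for Akr1d1, 1.05 for Bcat2, 1.04 for Rprd2, 1.02 for Aspdh and 1.00 for Inpp5j. It was 0.98 for Gjb2, 0.96 for Phlda2, 0.89 for Fgfr3 and Smad7, 0.87 for Tob1 and Slc22a19, 0.86 for Mettl7b, 0.85 for Egf and Cited2, 0.82 for Slc22a12, 0.79 for Slc22a6, 0.70 for Myl6, 0.68 for C1qtnf12 and 0.47 for Tmem150a. It was -0.88 for Dynll1, -1.03 for Arntl, -1.05 for C1qb, -1.35 for Abca1, -1.43 for Col8a1, -1.59 for Ptprc, -1.66 for Ypel2 and -1.71 for Cp. It was -2.55 for Cfi, -2.60 for Ms4a6b, -2.83 for Clu, -2.87 for D17H6S56E-5 and -4.70 for Serpina10.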

How the results depend on the processing

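The count of genes that differed by route was 101 after quantile normalization, 27 without a filter and 695 with array weights, and 22 to 291 without single mice. The ip count of 6 was 3 with a common spread, 24 with array weights, 13 without iv saline mouse 1 and iv 200 mg/kg mouse 27 (chosen after seeing the data), and 3 to 10 without single mice. The iv count of 585 was 84 on the iv arrays alone (added after seeing the data), 1365 with array weights and 354 to 816 without single mice (386 without mouse 25 and 354 without mouse 29). The route difference passed for 128 of 23537 probe sets, named or not (0.544%), for 53 without a filter and 1713 with array weights, and for 59 to 667 without single mice. The cause of these changes was not tested. In the fit of all 8 groups 56 genes passed, 18 of them relatively higher after ip dosing, and 24 were among the 43. Calls of the 43 lost there had adjusted p-values of 0.51 for Egf, 0.47 for Slc22a6, 0.44 for Aspdh, 0.25 for Slc22a19, 0.24 for Ptgs2, 0.21 for Igfbp1, 0.18 for C1qtnf12, 0.17 for C1qb and Tmem150a, 0.16 for Tob2 and 0.12 for Akr1d1. They were 0.11 for Slc22a12, Col8a1 and Arntl, 0.083 for Tob1, 0.067 for Mettl7b, 0.064 for Fgfr3, 0.06 for Myl6 and 0.057 for Slc25a33. Scaling to a common spread moved the median route difference of all genes by 0.14. The 43 route differences kept their sign in every setting that tested them. Of the 585 iv calls 7 had the other sign with a common spread and 1, Mybpc3, with low values set to the table's median. The 6 ip calls kept their sign in the settings run. Levels near the table's median limit what can be seen, as do 6 arrays per group. No paired analysis was possible because no mouse number is shared between groups.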
